A study of Mus musculus with 6 samples.

Results

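Small nucleolar RNAs (snoRNAs) were examined in dendritic cells grown from mouse bone marrow. The members are all genes of the array whose annotated symbol starts with Snora or Snord. They number 51 of the 19938 genes with a usable probe set, and consist of 31 box C/D genes (Snord) and 20 box H/ACA genes (Snora). Each gene is represented by its probe set with 1 symbol, and where a gene had several, by the one with the highest mean over the 6 arrays. No gene was left out for a low signal. Probe sets were thus chosen by mean signal, the measured value used, and there was a choice for 5 genes with 2 probe sets each. The 2 probe sets of Snord118 gave the same values, as did those of Snora30. The choice could therefore change values only for Snora21, Snora3 and Snord58b.

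The comparison concerns dendritic cells that develop from marrow whose donors had, or had not, had their skin exposed to ultraviolet (UV) light. All recipients were female C57BL/6J mice, which carry the CD45.2 form of CD45, and had received 2000000 bone marrow cells from congenic B6.SJL-Ptprca donors (CD45.1). Donors of the control group were naive, and donors of the other group had received up to 8 kJ/m2 of broadband UV on shaved back skin. An age of 6 to 10 weeks is listed for the mice of both groups. Recipient marrow was cultured for 5 days with GM-CSF and IL-4 at 10 ng/ml each, and cells carrying CD11c were enriched with magnetic beads to above 95%. Each group had 3 RNA preparations with an array for each, here called naive-donor 1 to 3 and UV-donor 1 to 3. The labels do not give the share of cultured cells that descended from the donor. They also do not say that preparations came from separate recipients, so p-values measure only the spread between these preparations. Prostaglandin E2 pellets named in the series' design text belong to samples not analysed here. Median log2 signals of the 6 arrays lay between 7.16 and 7.23, and the small number of arrays limits the precision.

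SnoRNAs are short RNAs of the nucleolus that direct chemical changes in ribosomal RNA. A box C/D snoRNA pairs with its target and guides 2′-O-methylation by the enzyme fibrillarin, and a box H/ACA snoRNA guides conversion of uridine to pseudouridine by dyskerin. A few of both classes instead take part in cutting the ribosomal RNA precursor. In mammals most are released from introns of a host gene, often one for a ribosomal protein or for a non-coding RNA whose exons have no known product.

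The sequences that frame the results are those of a box C/D member and of host gene starts. Box C, with the core UGAUGA near the 5′ end of the RNA, is bound by the protein core of box C/D particles. The RefSeq tables used here (GRCm38.p6) hold bases of 1 member, Snord33, because a microRNA entry (mmu-miR-5121, chr7:45126925-45126945, minus strand) covers bases 1 to 21 of its 82. Capitals mark the box C core at bases 7 to 12.
Snord33: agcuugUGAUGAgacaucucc

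By position in the RefSeq gene table, 50 of the 51 members lie within the span of another gene, taken here as the host. The table gives no strand, and for 3 members with several such genes the shortest was taken. Hosts were protein-coding for 37 members and long non-coding for 13. Snord118 alone lay in no other gene. The 40 hosts included 10 with 2 members each. As background, many snoRNA host transcripts start with a C followed by pyrimidines, the 5′ terminal oligopyrimidine motif of translation-related genes. A C followed by at least 4 pyrimidines, beginning from 10 bases before to 5 bases after an annotated start on the gene's strand, was found for 14 of 30 hosts with a window in the promoter table (46.7%). It was found for 28.8% of all 27025 genes in that table. Such a run can lie wholly before the annotated start, as in Tcp1, so these are not counts of transcripts that start with it. Shown from 20 bases before the start are hosts of members with low p-values (Rpl13a, Gas5, Rps3) and 2 hosts of paired box H/ACA members (Snhg12, Snhg3). They lie at chr7:45128736-45128765 (minus), chr1:161035146-161035175 (plus), chr7:99483700-99483729 (minus), chr4:132308658-132308687 (plus) and chr4:132353677-132353706 (minus). Capitals mark the run within the 30 bases, and Rps3 had none there.
Rpl13a: gataagaaaccctgcgacaagaCCTCCTCC
Gas5: gactcagccgccatctcagCCTTTCggagc
Rps3: gaacacttgcaagggtcgccgcgctgcgcg
Snhg12: gtgcaggccgttctcagtCCTTTCTCgctt
Snhg3: aggcatagtcgaccacgcctgaCTTCCggg

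Box C/D snoRNAs had slightly higher signals in the UV-donor group, while box H/ACA snoRNAs were split. Differences are UV-donor minus naive-donor means on the log2 scale. They were positive for 29 of 31 box C/D genes and for 9 of 20 box H/ACA genes, against 45.0% of all genes (54.9% were negative). The median difference was 0.14 over box C/D genes, -0.02 over box H/ACA genes and -0.01 over all genes. No member passed the test across all genes. With limma's two-sided test and the Benjamini-Hochberg adjustment over 19938 genes, 0 of 51 members had an adjusted p under 0.05, against 0.115% of all genes called higher and 0% called lower. The lowest adjusted p of a member was 0.145 by limma. By limma's unadjusted p under 0.05, 7 members, all box C/D, were higher and 0 lower, where 7.02% of all genes were higher and 6.18% lower. Groups did not overlap for 7 box C/D genes, all higher, and for 0 box H/ACA genes. Among all genes 9.53% were higher and 10.1% lower without overlap. No p is given for a class as a whole, since the members were chosen with results of these arrays known.

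**Figure D1:**
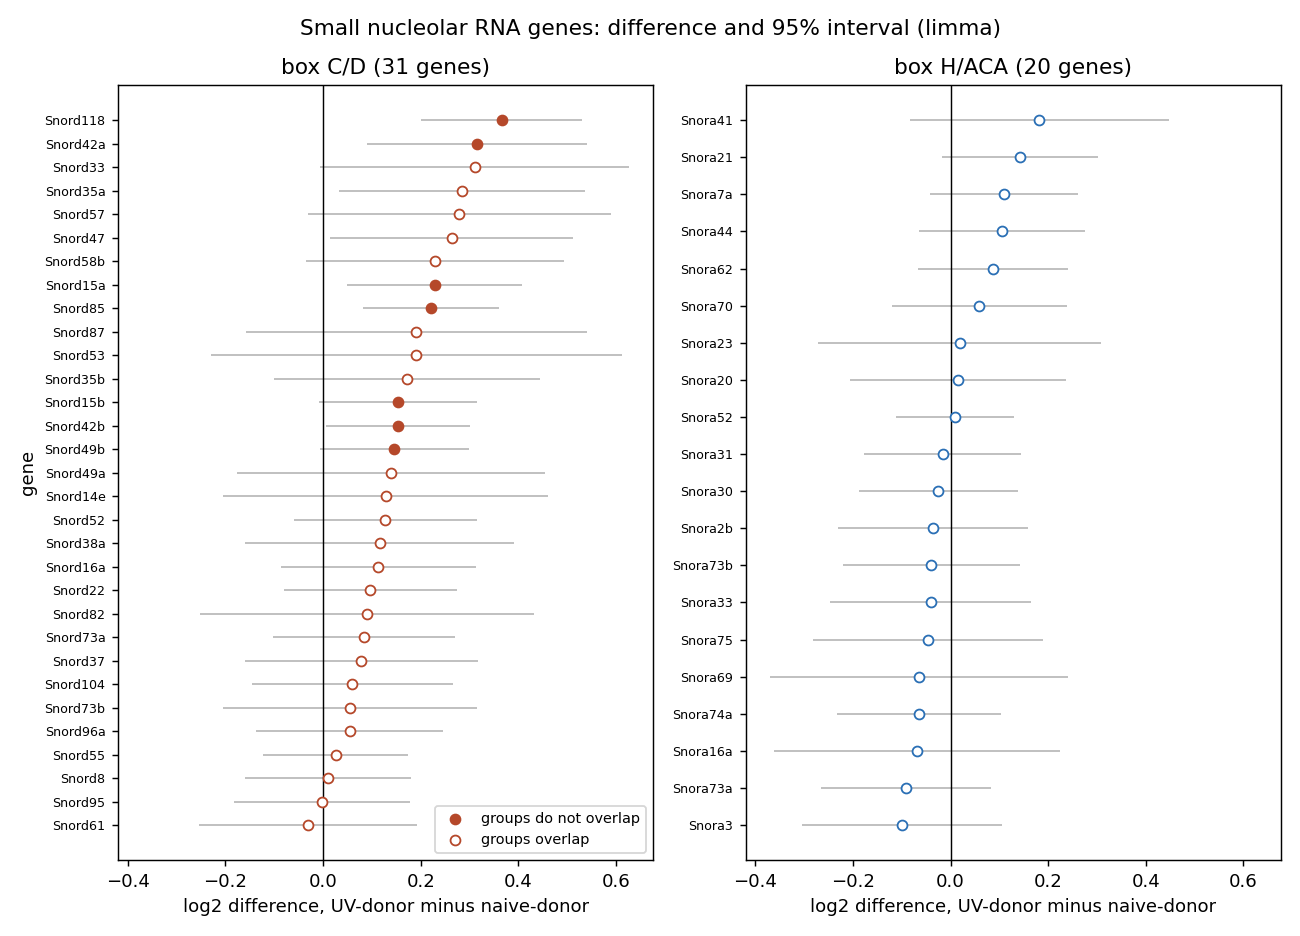
Log2 difference (UV-donor minus naive-donor) of each snoRNA gene on the horizontal axis, with its 95% interval from limma as a bar; filled points are genes whose groups do not overlap. Points of 29 of 31 box C/D genes lie right of 0, and those of the 20 box H/ACA genes lie on both sides, from -0.10 to 0.18.

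The array naive-donor 1 set much of this pattern. It had the lowest signal of the 6 arrays for 22 of 31 box C/D genes, and UV-donor 3 had the highest for 16. Each gene was then expressed as its deviation from its own mean over 6 arrays. The median deviation of box C/D genes was -0.20 on naive-donor 1, -0.04 on naive-donor 2 and -0.01 on naive-donor 3. It was 0.02, 0.04 and 0.17 on UV-donor 1, 2 and 3. The class median of box C/D genes was thus above 0 on every UV-donor array and below 0 on every naive-donor array, with naive-donor 3 and UV-donor 1 close together. Without naive-donor 1 the median difference of box C/D genes was 0.07, with 24 of 31 positive and 3 genes at an unadjusted p under 0.05 by limma (Snord118, Snord85 and Snord42a). In that setting 5.18% of all genes were higher at that level. In that setting 7 box C/D genes were higher without overlap, against 12.9% of all genes, and Snord61 was lower without overlap. Without UV-donor 3 the median was 0.09, with 27 of 31 positive.

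Box H/ACA genes followed other arrays. Their median deviation was 0.04, -0.05 and 0.01 on naive-donor 1, 2 and 3, and -0.09, 0.10 and -0.01 on UV-donor 1, 2 and 3. UV-donor 2 was the highest array for 9 of the 20 and UV-donor 1 the lowest for 7, so UV-donor arrays stood at both ends. With any 1 array left out, 7 to 14 of the 20 differences were positive, and the class median changed sign without naive-donor 1 (0.01), UV-donor 1 (0.03) or UV-donor 3 (0.03). It was also positive with array medians centred (0.01) and after cyclic loess (0.0049). The box C/D median minus the box H/ACA median was -0.23, 0.0048 and -0.01 on the naive-donor arrays and 0.12, -0.06 and 0.18 on the UV-donor arrays. These values overlap, because UV-donor 2 lay below naive-donor 2 and 3. Taken over the group differences, the gap between class medians was 0.16. It was 0.06 without naive-donor 1, 0.06 without UV-donor 3, and between 0.14 and 0.23 without any 1 of the other 4 arrays.

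**Figure D2:**
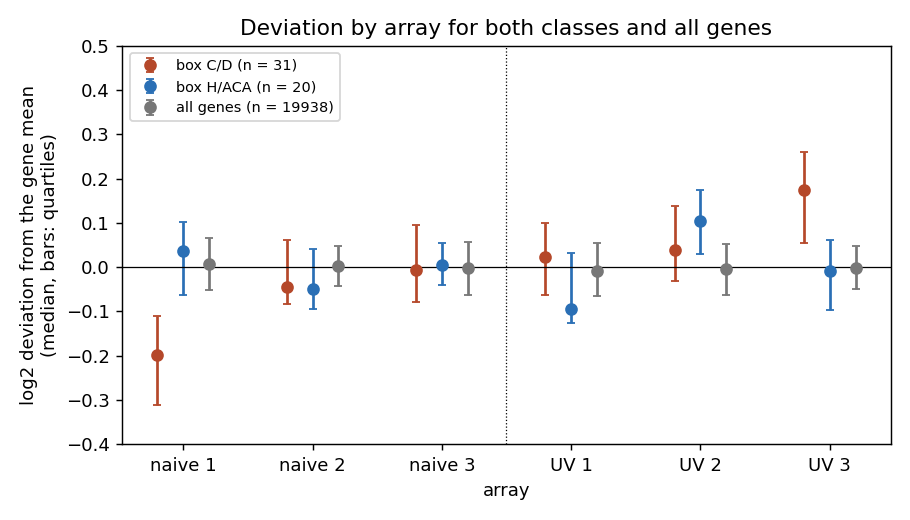
Log2 deviation from the gene's own mean (vertical axis) on each of the 6 arrays, as the median with quartile bars over box C/D genes, box H/ACA genes and all genes. The box C/D median runs from -0.20 on naive-donor 1 to 0.17 on UV-donor 3, while the median of all genes stays between -0.01 and 0.01.

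SnoRNA signals varied more between arrays of a group than those of most genes. The median within-group SD was 0.15 for box C/D genes, 0.11 for box H/ACA genes and 0.08 for all genes. Within groups, box C/D genes tended to deviate together. The median correlation of deviations was 0.35 over 465 pairs of box C/D genes, 0.175 over 190 pairs of box H/ACA genes and -0.07 over 620 mixed pairs. These correlations describe 6 shared arrays, and members of a class are not independent of each other.

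**Figure D3:**
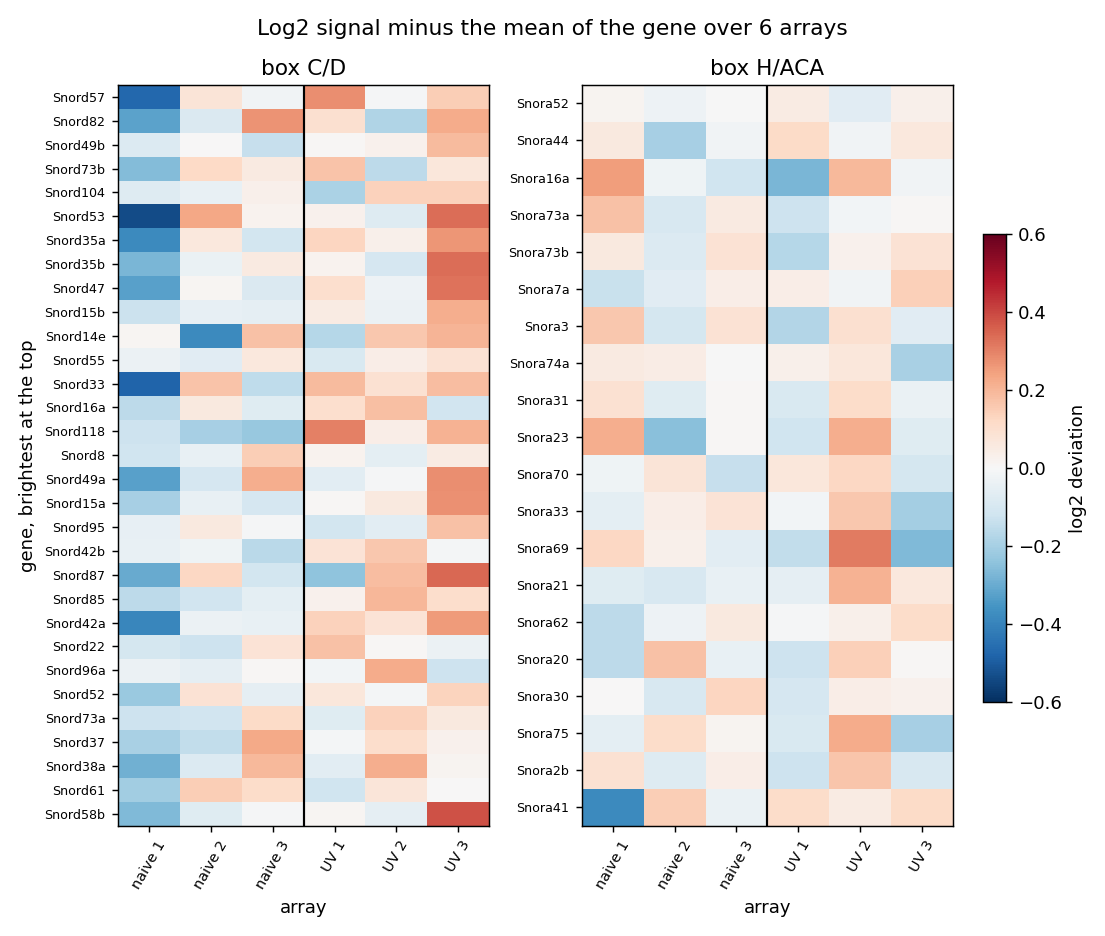
Log2 signal of each snoRNA gene (rows, brightest at the top) minus its own mean over 6 arrays (columns), with blue below and red above the mean. In the box C/D panel the naive-donor 1 column is blue for all but 1 gene, and the box H/ACA panel has no column of that kind.

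Snord118, also called U8, had the lowest p among the members. U8 does not guide a modification but is needed to release the RNAs of the large ribosomal subunit from their precursor, and it has a promoter of its own. Its log2 signals were 7.87, 7.80 and 7.77 on the naive-donor arrays and 8.30, 8.04 and 8.21 on the UV-donor arrays. Every UV-donor value lay above every naive-donor value. The means were 7.81 ± 0.05 and 8.18 ± 0.13 (SD, n = 3 each), a difference of 0.37 (95% interval 0.20 to 0.53) or 1.29-fold, with a limma adjusted p of 0.145. Over all alternatives its difference stayed between 0.31 and 0.44, with limma adjusted p-values from 0.0977 to 0.442.

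Among guides of 2′-O-methylation, Snord85 came next. Its signals were 6.91, 6.96 and 7.01 in the naive-donor group and 7.10, 7.27 and 7.18 in the UV-donor group, which did not overlap. The difference was 0.22 (95% interval 0.08 to 0.36, limma adjusted p = 0.206). The pair Snord42a and Snord42b, both within the ribosomal protein gene Rpl23a, also had groups without overlap. Snord42a had 6.57, 6.92 and 6.92 against 7.10, 7.04 and 7.21, a difference of 0.32 (limma adjusted p = 0.25), with naive-donor 1 well below the rest. Snord42b had 7.36, 7.38 and 7.24 against 7.49, 7.57 and 7.39, a difference of 0.15 (limma adjusted p = 0.3605), with UV-donor 3 next to the naive-donor arrays.

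The pair within Rps3, Snord15a and Snord15b, had groups without overlap too. Signals of Snord15a were 7.46, 7.61 and 7.56 against 7.66, 7.72 and 7.93, a difference of 0.23 (limma adjusted p = 0.285). Those of Snord15b were 8.97, 9.05 and 9.04 against 9.15, 9.06 and 9.32, a difference of 0.15 (limma adjusted p = 0.399). The gap between UV-donor 2 and the nearest naive-donor array was small for Snord15b. Snord49b, in the non-coding host 2410006H16Rik, had 11.20, 11.29 and 11.15 against 11.29, 11.31 and 11.48. Its difference was 0.15 (limma adjusted p = 0.398), and UV-donor 1 exceeded naive-donor 2 only in the third decimal. Its partner Snord49a, in the same host, differed by 0.14 with overlapping groups.

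The Rpl13a snoRNAs, known from work on lipid-induced cell stress, had large but scattered differences. Snord33, whose first bases are shown above, had 8.21, 8.86 and 8.54 in the naive-donor group and 8.88, 8.78 and 8.88 in the UV-donor group. The difference was 0.31 (95% interval -0.01 to 0.63), and naive-donor 2 lay inside the UV-donor range. Snord35a had 9.51, 9.96 and 9.79 against 10.03, 9.93 and 10.16, a difference of 0.29 (limma adjusted p = 0.327). In both genes naive-donor 1 was the lowest array.

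Gas5 is a growth-arrest non-coding RNA that hosts many snoRNAs, of which Snord47 alone had a probe set of 1 symbol. Snord47 had 8.96, 9.30 and 9.20 in the naive-donor group and 9.39, 9.26 and 9.61 in the UV-donor group. Its difference was 0.26 (limma adjusted p = 0.3545), while Gas5 itself differed by -0.19 (limma adjusted p = 0.4925), and both had overlapping groups. Snord22 (U22), which acts in processing of the small-subunit RNA and lies within the non-coding Snhg1, differed by 0.10 with overlapping groups. Snord14e, a copy of U14, which also acts on the small-subunit precursor, lies within the chaperone gene Hspa8. Its signals were 8.79, 8.40 and 8.96 against 8.61, 8.94 and 8.98, a difference of 0.13 with overlapping groups.

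The other bright box C/D members differed little against their spread. Snord57, within Nop56, had 11.53, 12.08 and 11.98 against 12.28, 12.00 and 12.15, a difference of 0.28 (95% interval -0.03 to 0.59). Snord82, within the nucleolin gene Ncl, had 11.25, 11.49 and 11.84 against 11.67, 11.39 and 11.79, a difference of 0.09. Groups of both genes overlapped, with naive-donor 1 lowest. Snord73b (within Rps3a1), Snord104 and Snord53 (within Wdr43) differed by 0.06, 0.06 and 0.19, all with overlapping groups.

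The remaining box C/D members ran from 0.23 (Snord58b, within Rpl17) down to -0.03 (Snord61, within Rbmx). Snord61 and Snord95 (-0.0016, in the gene of the ribosomal scaffold Rack1) were the 2 box C/D genes with a negative difference. Snord58b, Snord61 and Snord38a were the dimmest of the class, at mean signals of 4.21, 4.47 and 5.36, and all had overlapping groups. The median difference of the class was positive in each range of brightness. Box C/D genes had a median difference of 0.10 at mean signals under 7 (n = 9), 0.15 from 7 to 9 (n = 12) and 0.16 at 9 or above (n = 10). All genes in the same ranges had medians of -0.04, -0.0021 and 0.01. By median deviation of box C/D genes, naive-donor 1 was the lowest array in each range (-0.21, -0.14 and -0.30). The groups of arrays overlapped under 7, with naive-donor 3 at 0.08 and UV-donor 1 at -0.01. They also overlapped at 9 or above, with naive-donor 2 at 0.0071 and UV-donor 2 at -0.03, but not from 7 to 9.

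Of the box H/ACA genes, Snora73a and Snora73b are forms of U17, which takes part in early cuts of the small-subunit precursor, and both lie within the non-coding Snhg3. Snora73a had 11.16, 10.89 and 11.04 in the naive-donor group and 10.86, 10.97 and 11.00 in the UV-donor group. Snora73b had 11.00, 10.86 and 11.03 against 10.77, 10.97 and 11.03. The differences were -0.09 (95% interval -0.26 to 0.08) and -0.04 (-0.22 to 0.14), with overlapping groups and the lowest value of each on UV-donor 1.

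Snora52, a pseudouridylation guide within Rplp2, was the brightest member, at 13.32, 13.27 and 13.30 against 13.35, 13.24 and 13.33. Its difference was 0.01 (95% interval -0.11 to 0.13). Snora44 and Snora16a, which share the non-coding host Snhg12, went opposite ways, at 0.11 (-0.06 to 0.28) and -0.07 (-0.36 to 0.22). Snora7a, within Rpl32, differed by 0.11 (-0.04 to 0.26). Groups of these guides overlapped.

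The extremes of the box H/ACA class were Snora41 (within Eef1b2) at 0.18 and Snora3 (within Rpl27a) at -0.10. Snora41, Snora2b and Snora75 were the dimmest, at mean signals of 4.88, 5.15 and 6.24. Snora41 had 4.50, 5.03 and 4.84 in the naive-donor group against 4.99, 4.93 and 4.99, and is 1 of 4 box H/ACA genes with the lowest value on naive-donor 1. Snora31, within the gene of the translationally controlled tumour protein Tpt1, differed by -0.02 (95% interval -0.18 to 0.14). Box H/ACA medians were -0.02 at mean signals under 7 (n = 5), 0.0013 from 7 to 9 (n = 8) and -0.04 at 9 or above (n = 7).

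Most box C/D members had a higher difference than their measured host gene. Of the hosts, 23 had a usable probe set, and these covered 27 members. Over the 14 box C/D members among them, the median difference was 0.14 for the snoRNA and 0.0038 for the host, and 13 of 14 lay above their host. Over the 13 box H/ACA members the medians were 0.01 and 0.01, and 8 of 13 lay above their host. No host was called by limma, and host differences ran from -0.19 (Gas5) to 0.15 (Rps12, limma adjusted p = 0.328). Across the 27 pairs Pearson's r was -0.28 and Spearman's rho -0.09, given as a description since hosts are shared and all values come from the same arrays. Measured hosts of box C/D genes were brighter than the class of box C/D genes (median signal 11.87 against 7.94). They also varied less within groups (median SD 0.06 against 0.15), and the part of this in the smaller host differences was not tested. Several hosts are ribosomal protein genes with processed copies elsewhere in the genome, and what their probe sets bind was not examined.

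**Figure D4:**
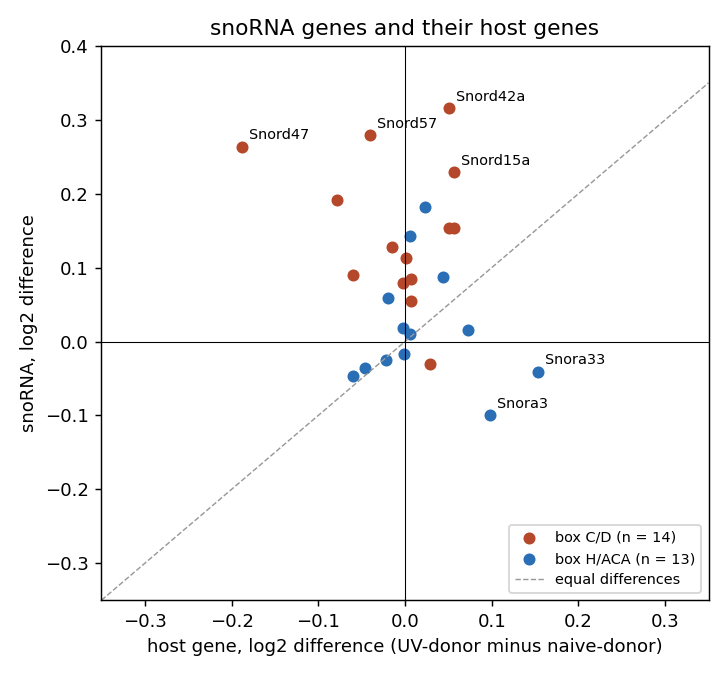
Log2 difference (UV-donor minus naive-donor) of each snoRNA on the vertical axis against that of its host gene on the horizontal axis, with a dashed line at equal differences. Of 14 box C/D genes 13 lie above the line, while 8 of 13 box H/ACA genes do.

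Among the 10 shared hosts, the nucleolin gene Ncl alone holds members of both classes. These are Snord82 (0.09) and Snora75 (-0.05), both with overlapping groups, while Ncl itself differed by -0.06. Differences within the 10 shared hosts spread by 0.01 (Snord49a and Snord49b) to 0.17 (Snora44 and Snora16a). By kind of host, box C/D genes had a median of 0.15 within ribosomal protein genes including Rack1 (n = 15) and of 0.13 within other hosts (n = 15). Box H/ACA genes had medians of 0.03 (n = 8) and -0.03 (n = 12) in the same order.

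Proteins of snoRNA particles differed little. Fibrillarin (Fbl), the methylase of box C/D particles, differed by 0.12 (limma adjusted p = 0.379) with groups that did not overlap. Its partners Nop56, Nop58 and Snu13 differed by -0.04, 0.01 and -0.0017. Dyskerin (Dkc1), the pseudouridine synthase of box H/ACA particles, differed by 0.07, and its partners Nop10, Nhp2 and Gar1 by 0.13, -0.04 and -0.02. Among 14 measured assembly factors 11 had positive differences, 1 of them with an unadjusted limma p under 0.05, and 0 were called. Without overlap 5 of the 14 were higher and 0 lower. Among all genes 45.0% had positive differences, 7.02% were higher at that p, and 9.53% were higher and 10.1% lower without overlap. The lowest p values among assembly factors were those of Znhit3 (0.18) and Pih1d1 (0.15), both factors of box C/D assembly. Of 13 proteins that process the ribosomal RNA precursor 3 had positive differences, and the lowest p values were those of Utp4 (-0.12) and Emg1 (0.09). All 8 measured factors of RNA caps, intron debranching and decay had positive differences up to 0.165, led by the debranching enzyme Dbr1 (0.165) and the exonuclease Dis3 (0.12), with 0 called.

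MicroRNA genes mostly had negative differences, while the few other small RNAs measured mostly had positive ones. Over 300 microRNA genes the median difference was -0.06, with 96 positive. By limma's unadjusted p under 0.05, 6 of the 300 were higher and 34 lower, against 7.02% and 6.18% of all genes, and 0 were called. MicroRNA probe sets were dim, with a median signal of 5.57. Of the 7622 genes at signals under 7, 176 were higher and 715 lower at that level, with a median of -0.04. The microRNA genes of lowest p were Mir192 (-0.34), Mir500 (-0.31) and Mir24-2 (-0.25). U3, annotated as Rnu3a and so outside the naming rule, is a box C/D RNA of early precursor cleavage and differed by 0.22 (limma adjusted p = 0.436). Its signals were 8.97, 9.02 and 9.32 against 9.17, 9.28 and 9.52, with overlapping groups.

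Small RNAs of Cajal bodies, which carry the same boxes and modify spliceosomal RNAs, were measured for 3 genes. Scarna17 had 10.22, 10.30 and 10.23 against 10.47, 10.46 and 10.57, a difference of 0.25 without overlap (limma adjusted p = 0.167). Scarna8 differed by 0.19 and Scarna13 by -0.24. Telomerase RNA (Terc), which ends in a box H/ACA domain, had 8.42, 8.21 and 8.43 against 8.64, 8.44 and 8.61, a difference of 0.21 without overlap (limma adjusted p = 0.325). The RNA of RNase P (Rpph1) differed by 0.20 and that of RNase MRP (Rmrp) by 0.07. The 7SK RNA (Rn7sk), the brightest of these, differed by 0.03, the spliceosomal Rnu5g by 0.44 and the histone-processing Rnu7 by -0.40, with 0 of them called by limma. Differences were positive for 2 of the 3 Cajal body RNAs (median 0.19) and for 4 of 5 genes with an Rnu symbol (median 0.13). All 4 of Terc, Rpph1, Rmrp and Rn7sk were positive (median 0.14), and 3 of them were higher without overlap. Among all genes 45.0% were positive and 9.53% were higher without overlap.

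Probe sets that list several symbols were not used for any gene, and 41 of them list a snoRNA symbol. Of these, 24 share 1 combination of box C/D symbols and are dim (mean signals 4.44 to 4.85). Their median difference was -0.09, with 20 of the 24 lower without overlap and 1 positive. Of all genes 10.1% were lower without overlap, as were 1003 of the 7622 genes at signals under 7. With the same symbols listed, the 24 probe sets do not count as separate measurements. Over the other 9 probe sets that list box C/D symbols the median was 0.30 with 8 positive, and over 8 that list box H/ACA symbols it was 0.06 with 5 positive. Without overlap 2 of the 9 and 2 of the 8 were higher and 0 lower, against 9.53% of all genes higher.

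The preparations differed in other ways too. The dendritic cell markers Itgax, H2-Ab1, Cd74, Flt3 and Ccr7 differed by -0.04 to 0.10, and Cd209a by 0.59 (limma adjusted p = 0.0237). Among all genes 45.0% had positive differences, and 7.02% were higher at an unadjusted limma p under 0.05. By limma 0.115% of all genes were called higher and 0% lower. Of 10 neutrophil markers 8 had positive differences and 2 were called. Their median deviation was -0.27 to -0.01 on naive-donor arrays and 0.07 to 0.31 on UV-donor arrays. All 9 measured proliferation genes had positive differences with an unadjusted limma p under 0.05, though none was called, with median deviations of -0.41 to -0.04 on naive-donor arrays and 0.12 to 0.57 on UV-donor arrays. Naive-donor 1 was the lowest array by that median, as it was for box C/D genes, but UV-donor 1 and not UV-donor 3 was the highest. Macrophage (4 of 6 positive) and progenitor markers (4 of 4) each had 1 call, T and NK (4 of 4) and B cell markers (1 of 2) had 0 calls, and erythroid markers were not measured. Their part in the snoRNA values was not tested, and in such bulk samples fewer cells of a type and less RNA per cell cannot be told apart.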

How the data were processed

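Total RNA of 6 preparations was measured on Affymetrix Mouse Gene 1.0 ST arrays. The deposited values are log2 signals per probe set, and the submitters' processing notes name oligo, RMA and limma without versions. Of 35556 probe sets, 21789 list 1 gene symbol and 1621 several, and 12146 are not listed in the platform annotation. Each of 19938 genes was given its probe set with 1 symbol of highest mean. Differences, intervals and p-values came from R 4.3.3 with limma 3.58.1 (functions lmFit and eBayes on 6 arrays, no covariates, two-sided, Benjamini-Hochberg over all genes), after the script was tested on simulated data. A permutation of 3 against 3 arrays cannot give a p below 0.1, so none was run. Hosts, lengths and sequences came from RefSeq tables of GRCm38.p6. Nesting was by position without strand, where a match of strand had been planned.

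The snoRNA genes and all gene lists were chosen with earlier results of these data known. Named snoRNAs were those without overlap between groups, the 6 brightest and 3 dimmest of each class, those within Gas5, Snhg1, Snhg3, Snhg12 or Rpl13a, those that act in cleavage of the ribosomal RNA precursor, and Snora31. Named hosts were theirs, and named proteins the particle cores and the 2 of lowest p in each other group. Named small RNAs were the 3 of lowest p with Terc, Rmrp and Rpph1. Snord49a, Snord95, Snora3, Rps12, Cajal body RNAs, Rn7sk, Rnu5g and Rnu7 were named after their values were seen. Alternatives were a replicate block, other normalizations, variance priors, array weights, brightness and probe set choices, a threshold of 0.1, and leaving out each array.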

Additional observations from a re-analysis of the deposited data

How the results depend on the processing

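No snoRNA gene was called by limma in the report's setting or in any of 16 alternatives. The alternative threshold of 0.1 was applied in the report's setting only, and the other alternatives kept an adjusted p under 0.05. With an intensity trend and robust prior, Snord118 had a limma adjusted p of 0.0977. At an unadjusted limma p under 0.05 there were 7 members in the report's setting. The 23 genes called among all genes became 0 with the replicate block, 15 with quantile normalization, 43 with an intensity trend and robust prior, 0 with every probe set tested and 61 at an adjusted p under 0.1. Leaving out each array gave 0 to 13. Same-numbered arrays correlated at -0.1, -0.153 and 0.096, so the numbers were not taken as pairs, and a replicate block cannot change a difference in this balanced design. SnoRNA genes at an unadjusted limma p under 0.05, 7 in the report, numbered 12 with array medians centred and 4 with every probe set tested. They numbered 3 to 12 with each array left out. The 10 without UV-donor 2 included 2 box H/ACA genes that were lower. The share of all genes higher at that level was 7.02% in the report, 10.8% with centring and 5.06% with every probe set tested. It was 5.18% to 7.05% with each array left out. Centring moved the median of all genes from -0.01 to 0.02 and made 31 of 31 box C/D and 11 of 20 box H/ACA differences positive, with 60.6% of all genes. Members without overlap in either direction, 7 in the report, numbered 9 to 18 with each array left out. They were 14 without naive-donor 2, 16 without naive-donor 3 and 18 without UV-donor 2. In those settings 7 to 13 box C/D genes and 0 to 3 box H/ACA genes were higher, and any others were lower. The share of all genes higher without overlap also went up, from 9.53% to between 12.9% and 14.9%. The share lower without overlap, 10.1% in the report, is not given for those settings. The median difference of box C/D genes was positive in 15 alternatives (0.07 to 0.21), of which the block, the prior and the testing of every probe set cannot move it. That of box H/ACA genes lay between -0.07 and 0.03, so it has no stable sign. The gap between class medians ranged from 0.06 to 0.23. The causes of these changes were not tested.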
